A study of Homo sapiens with 6 samples.

Results

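Chromatin accessibility around the genes of the JAK kinases and STAT transcription factors was examined by ATAC-seq in EndoC-βH3 cells, senescent and not. EndoC-βH3 is a human pancreatic beta cell line immortalised by removable transgenes, which also carries a CreER recombinase. The senescent group had received the tamoxifen derivative 4-OHT for 3 weeks to activate the recombinase and excise the transgenes, and the non-senescent group was the control of the same line. Each group had 3 libraries of 100000 cells, all from this 1 line, of wild-type genotype apart from the transgenes and the recombinase. Senescence, the loss of the transgenes and the 4-OHT treatment therefore cannot be told apart. The members were the 4 kinase genes JAK1, JAK2, JAK3 and TYK2 and the 5 STAT genes STAT2, STAT3, STAT4, STAT5B and STAT6. A promoter region overlapped the 2 kb on either side of the start site of a protein-coding transcript of one of these 9 genes, and a distal region lay outside all such windows with its middle within 100 kb of a member's start site and no nearer to that of another protein-coding gene. These rules found 37 of the 108542 regions of the authors' deposited table, 14 at promoters and 23 distal.

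JAK kinases are bound to the inner tails of cytokine and interferon receptors. When a ligand brings the receptor chains together, the kinases phosphorylate each other, the receptor and the STAT proteins docked on it, and the STAT proteins pair up and enter the nucleus to bind DNA. Type I interferon receptors use JAK1 and TYK2 and act through STAT2 in a complex with IRF9, whereas receptors of the IL-6 family act mostly through STAT3, and beta cells are known to respond to interferons and to growth hormone and prolactin, which use JAK2 and STAT5 proteins.

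The authors' deposited table gives each region a mean signal, which is the normalised read count averaged over the 6 libraries, and a log2 fold change with its standard error (SE) and adjusted p-value from the DESeq2 Wald test. Values of individual libraries are not in it, and the spread between them is seen here only through the SE. A positive log2 fold change is read as more open in senescent cells, since the MKI67 promoter, at a gene of dividing cells, had -0.53 (SE 0.097, adjusted p = 4.61e-07). A region was called higher or lower at an adjusted p under 0.05 together with a fold change over 1.5, which is 0.585 on the log2 scale. The adjusted p-values measure the spread between these libraries, which nothing in the labels says came from separate cultures. All 10 beta cell marker genes had a promoter region, with a strongest mean signal from 405 (NKX2-2) to 7890 (INS). Of the markers of other cells, 6 of 6 other endocrine, 2 of 3 duct and 3 of 3 acinar genes had one. So did 2 of 5 blood, 2 of 3 mesenchymal and 2 of 3 endothelial genes. The highest was 2100 at the acinar gene CPA1, followed by 1340 at IRX2 (other endocrine) and 1060 at KRT19 (duct). The blood gene CD14 had 634, above NKX2-2, whereas the blood genes PTPRC, CD3E and SPI1 had none. These levels are averages of both groups, and their part in the changes was not tested.

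The accessible DNA itself is shown for 5 of the called regions and not for the others, as the middle 300 bases of each in hg38, read on the strand of the gene. The regions of JAK1, STAT5B and the upstream one of STAT3 are narrower than 300 bases, so their windows run past both edges. Capitals mark matches to the motifs searched, which are named with the results, and all lower case means that none of those letters occurred.
JAK1 intron, called higher, chr1:64921334-64921633, minus strand: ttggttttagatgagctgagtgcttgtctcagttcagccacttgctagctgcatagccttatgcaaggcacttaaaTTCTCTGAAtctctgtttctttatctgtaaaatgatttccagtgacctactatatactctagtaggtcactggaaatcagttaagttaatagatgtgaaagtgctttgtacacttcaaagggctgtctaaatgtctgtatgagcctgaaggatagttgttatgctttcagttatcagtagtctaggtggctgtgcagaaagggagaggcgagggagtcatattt
STAT3 upstream, called higher, chr17:42400214-42400513, minus strand: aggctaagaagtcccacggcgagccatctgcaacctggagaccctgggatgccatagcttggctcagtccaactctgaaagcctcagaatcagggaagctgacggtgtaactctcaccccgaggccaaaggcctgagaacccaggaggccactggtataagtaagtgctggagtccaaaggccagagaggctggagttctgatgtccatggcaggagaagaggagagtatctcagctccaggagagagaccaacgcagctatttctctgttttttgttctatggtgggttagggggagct
STAT5B intron, called higher, chr17:42248583-42248882, minus strand: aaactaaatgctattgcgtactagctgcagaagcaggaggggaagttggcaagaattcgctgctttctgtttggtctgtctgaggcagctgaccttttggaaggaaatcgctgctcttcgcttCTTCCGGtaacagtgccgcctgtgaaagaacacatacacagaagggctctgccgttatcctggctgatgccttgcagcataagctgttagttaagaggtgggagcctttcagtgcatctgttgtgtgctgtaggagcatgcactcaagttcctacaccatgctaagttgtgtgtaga
STAT4 promoter, called lower, chr2:191150648-191150947, minus strand: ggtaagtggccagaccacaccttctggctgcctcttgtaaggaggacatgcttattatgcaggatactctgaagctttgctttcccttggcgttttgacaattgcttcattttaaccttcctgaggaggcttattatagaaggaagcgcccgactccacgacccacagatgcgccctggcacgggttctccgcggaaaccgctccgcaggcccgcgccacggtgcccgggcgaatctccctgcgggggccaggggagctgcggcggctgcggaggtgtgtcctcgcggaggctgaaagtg
TYK2 internal promoter, called lower, chr19:10353243-10353542, minus strand: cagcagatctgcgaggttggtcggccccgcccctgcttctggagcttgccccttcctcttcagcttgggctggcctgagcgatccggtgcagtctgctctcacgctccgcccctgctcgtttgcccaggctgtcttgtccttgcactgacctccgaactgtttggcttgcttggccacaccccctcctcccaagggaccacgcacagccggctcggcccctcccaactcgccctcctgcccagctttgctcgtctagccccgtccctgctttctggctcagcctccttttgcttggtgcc

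At the promoters, the region at the canonical start site of STAT4 was called lower. The strongest promoter regions of the other 8 members changed by less than the fold limit. Among these 8, JAK2, TYK2 and STAT6 were also lower at an adjusted p under 0.05. Of the 14 promoter regions 0 were called higher, where 3.56% of all 20094 promoter regions were, and 2 were called lower, where 9.04% were. Without the fold limit the counts were 1 higher and 5 lower, against 10.2% and 34.7% of all promoter regions. The log2 fold changes ranged from -1.25 to 0.45 with a median of -0.10, beside -0.13 over all promoter regions, and 5 of the 14 were positive. These counts are near the background shares and are not a result about the members, so the values are given gene by gene.

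**Figure D1:**
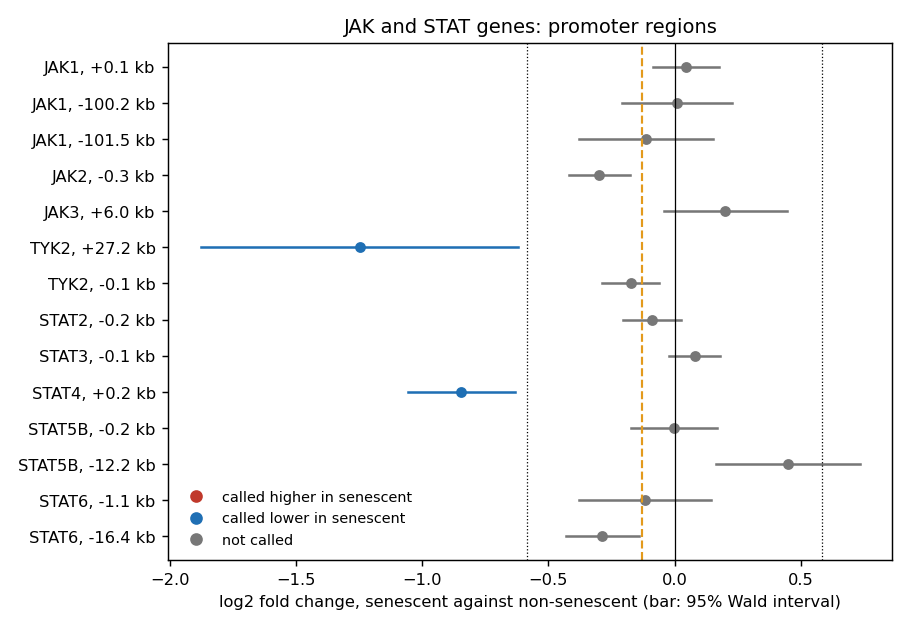
Log2 fold change of each of the 14 promoter regions, senescent against non-senescent (x axis), with its 95% Wald interval as a bar. Rows give the gene and the distance of the region's middle from the canonical start site, dotted lines mark the fold limit and the dashed line the median of all promoter regions (-0.13). The STAT4 region at +0.2 kb and the TYK2 region at +27.2 kb are the 2 called, both to the left.

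Among the kinases, JAK1, the partner of most cytokine and interferon receptors, had an open main promoter that was not called. The region chr1:64965354-64967598 covers 9 start sites including the canonical one, had a mean signal of 1112 and a log2 fold change of 0.04 (SE 0.066 and adjusted p = 0.615), with a 95% interval from -0.09 to 0.17. A second cluster of JAK1 start sites lies about 100 kb further upstream, where 2 weaker regions with mean signals of 318 and 204 had log2 fold changes of 0.01 (SE 0.11) and -0.11 (SE 0.135).

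JAK2 serves the receptors of growth hormone, prolactin and erythropoietin. Its single promoter region, chr9:4984314-4985719, had a mean signal of 1283 and was lower in senescent cells by a small amount, with a log2 fold change of -0.30 (SE 0.062 and adjusted p = 1.06e-05) that did not reach the fold limit. From the mean and the fold change, the implied levels are 1410 in non-senescent and 1150 in senescent cells. The difference shrank to -0.12 (adjusted p = 0.113) when the running medians of fold change along mean signal and GC content, the trends of all regions, were both removed.

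TYK2, the other kinase of the type I interferon receptor, had the kinase promoter with the highest mean signal per region. The region at its canonical start site, chr19:10380151-10381168, had a mean signal of 1710 and a log2 fold change of -0.18 (SE 0.058 and adjusted p = 0.00857), also under the fold limit. The called loss was at a weak internal start site 27.2 kb into the gene, in an intron, at chr19:10352990-10353797. There the mean signal was 45.1, the log2 fold change -1.25 (SE 0.32, adjusted p = 0.000475) and the implied levels 63.5 and 26.7. This region lies 127 bp from the start site that makes it a promoter region, and with canonical transcripts alone it is no longer a region of TYK2.

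JAK3, which works with the common gamma chain of interleukin receptors and is known mainly from lymphocytes, had no region over any of its start sites. Its only region, chr19:17841293-17842769, lies in an intron 1678 bp from the nearest start site, with a mean signal of 292 and a log2 fold change of 0.20 (SE 0.125 and adjusted p = 0.189).

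Among the STAT genes, STAT3 and STAT2 had the promoter regions of highest mean signal, and neither was called. The STAT3 region, chr17:42387826-42389203, covers 18 start sites and had a mean signal of 2621, above 97.0% of all promoter regions, with a log2 fold change of 0.08 (SE 0.051 and adjusted p = 0.211). The STAT2 region, chr12:56359891-56360803, had a mean signal of 1947 and a log2 fold change of -0.09 (SE 0.058 and adjusted p = 0.206). The 95% intervals, -0.02 to 0.18 for STAT3 and -0.20 to 0.02 for STAT2, leave out changes as large as the fold limit in either direction. With both trends removed STAT3 had 0.26 (adjusted p = 5.04e-06) and, among the kinases, JAK1 0.23 (adjusted p = 0.00175) and JAK3 0.36 (adjusted p = 0.0114), each under the fold limit.

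STAT4 transmits signals of IL-12 and type I interferon, mainly in lymphocytes. Its promoter region, chr2:191150297-191151299, covers the canonical start site and had a mean signal of 348.8. The implied levels were 448 in non-senescent and 249 in senescent cells, and the log2 fold change was -0.85 (SE 0.108, adjusted p = 1.39e-13), with a lower value at 4.2% of all promoter regions. This fall stayed called when the values were centred on the median of all regions, and when the trend on mean signal, GC content or both was removed, but not when a change beyond 1.5-fold itself was tested (adjusted p = 0.193).

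STAT5B, a factor of growth hormone and prolactin signals, was not called at its canonical start site, chr17:42275565-42277569, where the mean signal was 569 and the log2 fold change -0.00 (SE 0.087, adjusted p = 0.975). A second region 12.2 kb upstream, chr17:42288201-42288885, had a mean signal of 189 and a log2 fold change of 0.45 (SE 0.146 and adjusted p = 0.00704), under the fold limit. That region also lies at the start of another protein-coding gene, so its value cannot be given to STAT5B alone.

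STAT6 carries the signals of IL-4 and IL-13. No region of the table covers a STAT6 start site. The region nearer to the canonical start site, chr12:57112256-57112668, had a mean signal of 227 and a log2 fold change of -0.12 (SE 0.133 and adjusted p = 0.5). The stronger one, chr12:57127092-57128436, is shared with the promoter of LRP1, had a mean signal of 809 and a log2 fold change of -0.29 (SE 0.074 and adjusted p = 0.000475), under the fold limit, which shrank to -0.11 (adjusted p = 0.238) with both trends removed.

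Away from the promoters, regions near STAT3, STAT5B, JAK1, JAK2 and TYK2 were called higher, and others near JAK1 and STAT4 were called lower. The largest single change was upstream of STAT3. Of the 23 distal regions 6 were called higher, where 17.4% of the 55158 distal regions within 100 kb of a start site were, and 2 were called lower, where 10.9% were. Without the fold limit 8 were higher and 4 lower, against 23.0% and 19.7% of all distal regions. The median log2 fold change was 0.09, beside 0.03 over all distal regions, with a range from -0.90 to 2.18. These counts are near the background shares too, and the changes are described region by region. Of the 23, 17 lay in introns, 16 of them in introns of the member itself, 5 lay between genes and 1 covered a coding exon of STAT3. STAT2 and JAK3 had no distal region under the rule.

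**Figure D2:**
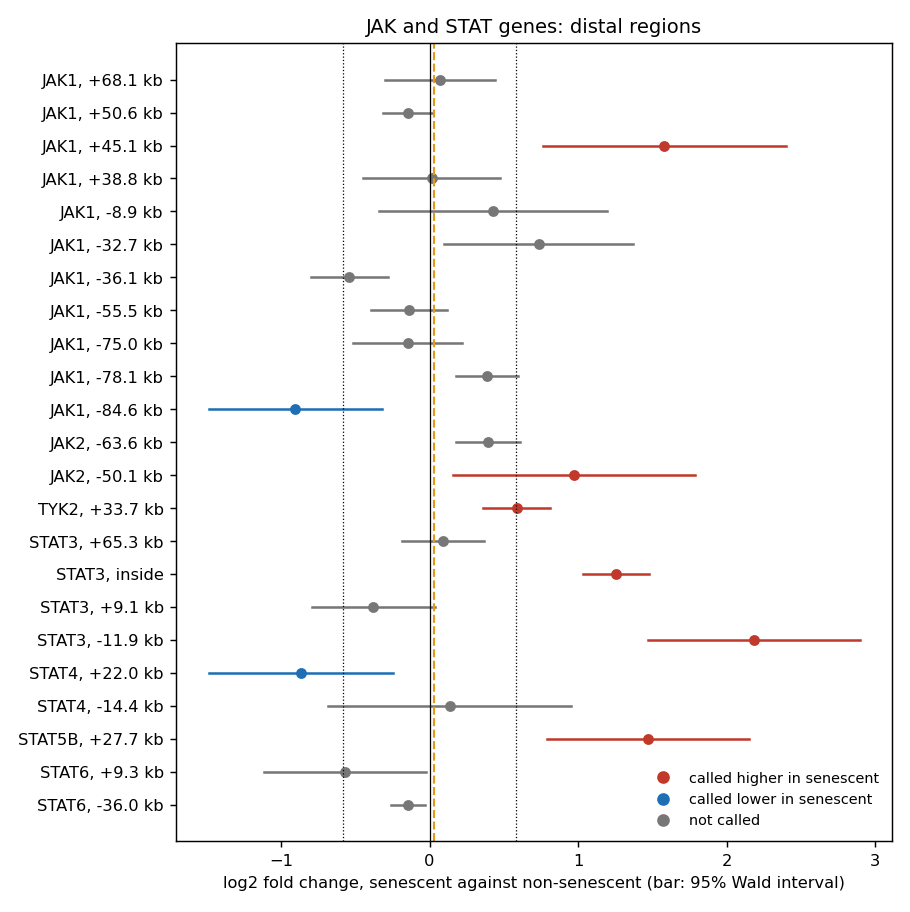
Log2 fold change of each of the 23 distal regions, senescent against non-senescent (x axis), with its 95% Wald interval as a bar. Rows give the gene and the distance of the region's middle from the canonical start site (negative: upstream; 1 STAT3 region is given only as inside the gene), dotted lines mark the fold limit and the dashed line the median of all distal regions (0.03). The 2 called STAT3 regions have the bars whose lower ends lie farthest above the limit.

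STAT3 had 4 distal regions, of which 2 rose. An intronic region had a mean signal of 306.5, with implied levels of 181 in non-senescent and 432 in senescent cells, and a log2 fold change of 1.26 (SE 0.113 and adjusted p = 1.38e-26), a 2.39-fold rise. It lies past the canonical start site, inside the gene. The region upstream of the gene, chr17:42400267-42400462, was weaker, with a mean signal of 39.5, implied levels of 14.3 and 64.8 and a log2 fold change of 2.18 (SE 0.364 and adjusted p = 2.57e-08), a 4.54-fold rise above 99.2% of all distal regions.

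These STAT3 regions were the only 2 of the 10 called regions near the members that passed the test of a change beyond 1.5-fold, with adjusted p = 3.18e-07 and 0.000481. The other 2 STAT3 regions were not called. The one over a coding exon, chr17:42322831-42323386, had 0.09 (SE 0.141) at a mean signal of 190, and the intronic one at chr17:42379055-42379697 had -0.38 (SE 0.212, adjusted p = 0.141) at 92.2. At STAT3, gains at 2 places stood beside a main promoter whose interval excludes a change of 1.5-fold. For the upstream region a start site of a long non-coding RNA gene, 10845 bp away, is nearer than that of STAT3. Start sites of other non-protein-coding gene types are likewise nearer to both called JAK1 distal regions (3041 and 6702 bp away). The same holds for the called distal regions of JAK2 (10736 bp), STAT4 (7083 bp) and STAT5B (14901 bp).

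**Figure D3:**
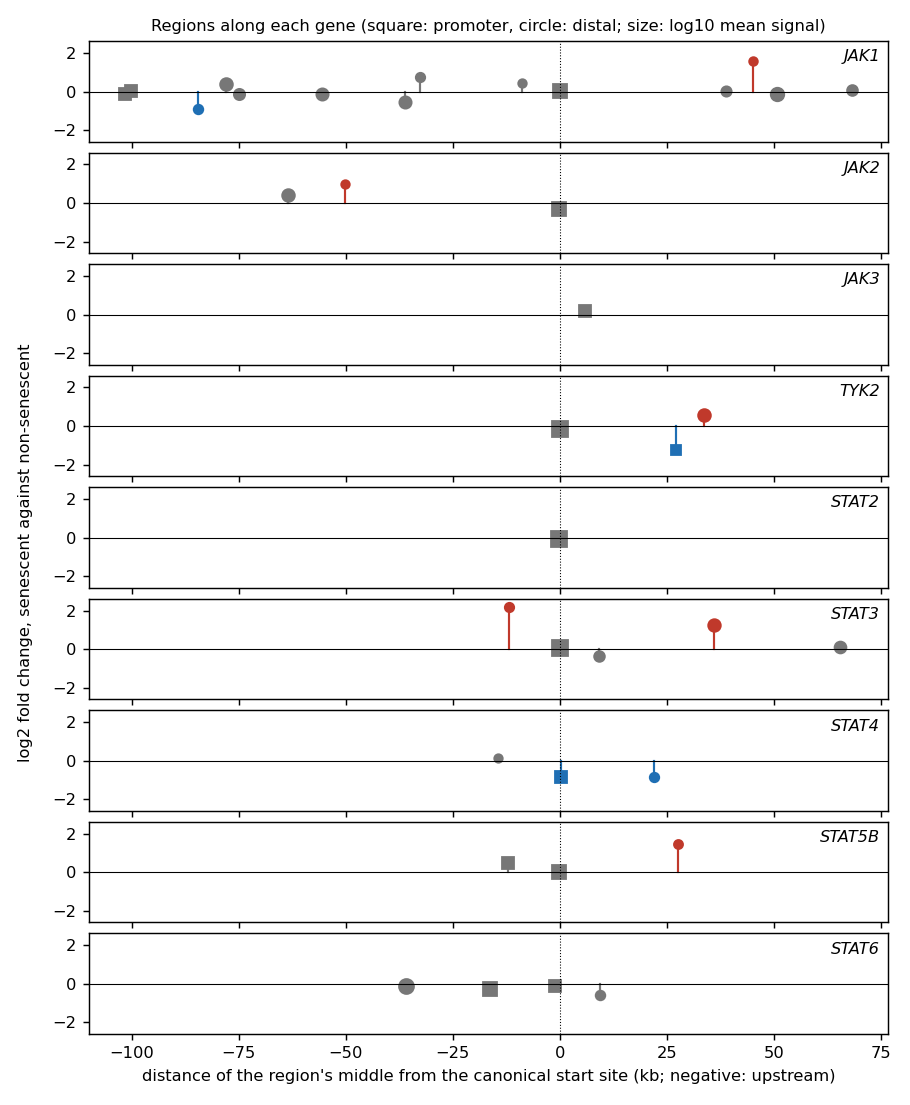
Position of each region along its gene, as the distance of its middle from the canonical start site in kb (x axis, negative upstream), against the log2 fold change (y axis). Squares are promoter and circles distal regions, the size follows the log10 mean signal, and red, blue and grey mark regions called higher, called lower and not called. The STAT3 panel shows the 2 rises on either side of a promoter at 0.08.

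STAT5B had 1 distal region, in an intron 27.7 kb past the start site at chr17:42248607-42248860. Its mean signal was 31.8, with implied levels of 16.8 and 46.7, and its log2 fold change 1.47 (SE 0.348, adjusted p = 0.000128), a 2.77-fold rise at a gene whose canonical promoter had -0.00.

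JAK1 had 11 distal regions, all in its own introns, and 94.2% of the 15493 protein-coding genes with a promoter region had fewer (median 2). Of these 11, 1 rose and 1 fell. The rise was at chr1:64921396-64921573, 45.1 kb past the canonical start site, with a mean signal of 25.0, implied levels of 12.5 and 37.5 and a log2 fold change of 1.58 (SE 0.417 and adjusted p = 0.000685). The fall was at chr1:65050846-65051435, 84.6 kb upstream of the canonical start site in an intron of the longer transcripts, with a mean signal of 45.2 and a log2 fold change of -0.90 (SE 0.296 and adjusted p = 0.00745).

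The stronger JAK1 distal regions moved less. The one of highest mean signal, 544 at chr1:64915564-64916386, had a log2 fold change of -0.15 (SE 0.087 and adjusted p = 0.169). Past the p threshold but under the fold limit were chr1:65002219-65003000, with a mean signal of 246 and -0.54 (SE 0.133, adjusted p = 0.000253), and chr1:65044321-65044909, with 333 and 0.39 (SE 0.108, adjusted p = 0.00136). The region at chr1:64999146-64999352 had a fold change past the limit, 0.73 (SE 0.325), with an adjusted p of 0.055. The median over the 11 was 0.01, with regions of both signs along the locus.

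JAK2 had 2 distal regions, both upstream of the gene between genes. The stronger, chr9:4921344-4922039, had a mean signal of 325 and a log2 fold change of 0.39 (SE 0.11 and adjusted p = 0.00143), under the fold limit and opposite in sign to the promoter. The weaker, chr9:4935055-4935278, was called higher at a mean signal of 23.3 with 0.98 (SE 0.416, adjusted p = 0.046). That call was lost at an adjusted p under 0.01 and on removal of the trend on mean signal (0.65) or of that on GC content (0.89).

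TYK2 had 1 distal region, chr19:10346564-10347195, 3654 bp past the end of the gene. It had a mean signal of 335, implied levels of 268 and 402 and a log2 fold change of 0.59 (SE 0.114 and adjusted p = 2.28e-06), which lies just past the limit of 0.585. It was under the limit once values were centred on the median of all regions (0.58) or the GC trend was removed (0.49). With canonical transcripts alone it is no longer a region of TYK2. The sign was opposite to that of both TYK2 promoter regions, of which the canonical one turned to 0.01 when both trends were removed.

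At STAT4 the distal region of highest signal fell as its promoter did. The intronic region chr2:191128750-191129316, 22.0 kb past the start site, had a mean signal of 42.6 and a log2 fold change of -0.86 (SE 0.317 and adjusted p = 0.018), with implied levels of 55.0 and 30.2. It was lost at an adjusted p under 0.01 and on removal of the GC trend (-0.71). The upstream region chr2:191165267-191165563 had 0.14 (SE 0.418, adjusted p = 0.82) at a mean signal of 22.5, an interval from -0.68 to 0.95 that holds changes past the limit in both directions. At STAT6, the intronic region chr12:57101897-57102323 had -0.57 (SE 0.279, adjusted p = 0.0866) at 46.5, and chr12:57146699-57148066, in an intron of LRP1, had -0.15 (SE 0.058, adjusted p = 0.0332) at 1358.

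The called distal rises were mostly at weak regions, and the 2 called falls, at JAK1 and STAT4, both had a mean signal under 50. Of the 10 distal regions with a mean signal under 50, 4 were called higher, against 23.0% of all such regions, and of the 13 with at least 50, 2 were (STAT3 and TYK2), against 14.8%. The median log2 fold change of all distal regions was 0.21 under a mean signal of 50 and -0.02 at or above it. Weak regions also have wider errors, with a median SE of 0.362 against 0.162. Fold changes of a size seen at weak JAK1, JAK2 or STAT5B regions, or upstream of STAT3, thus rest on fewer reads than that at the STAT3 intron.

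**Figure D4:**
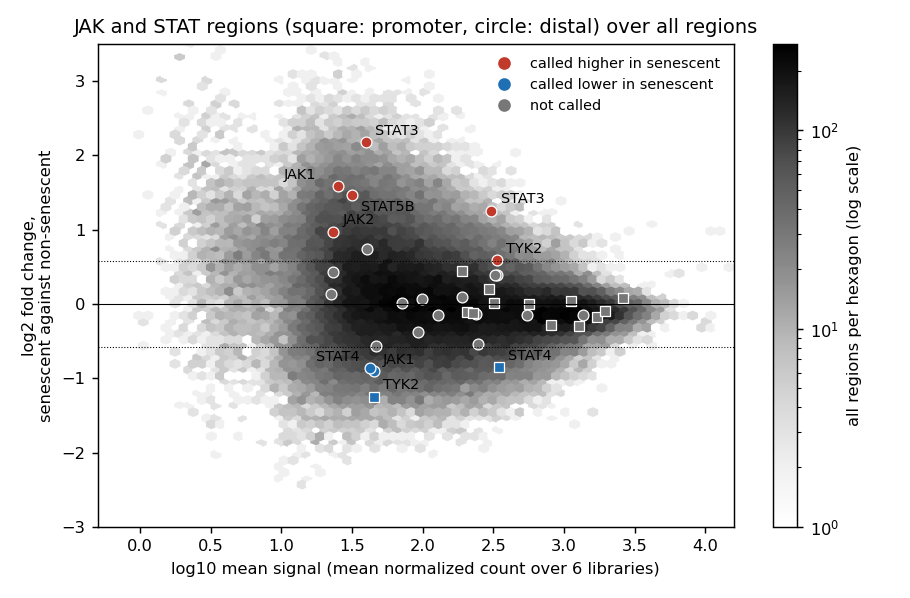
Log2 fold change, senescent against non-senescent (y axis), against log10 mean signal (x axis) for all 108542 regions as grey hexagons, with the members' promoter regions as squares and distal regions as circles. Dotted lines mark the fold limit. Strong promoters gather near 0 at the right, most called regions have a mean signal under 50, and the exceptions are the STAT3 intron, the TYK2 distal region and the STAT4 promoter.

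Letter patterns bound by the pathway's own factors were counted in all 37 regions, called or not. STAT dimers bind TTCNNNGAA, which occurred, on either strand of the middle 300 bases, in 1 of 14 promoter and 2 of 23 distal regions, against 5.42% and 8.62% of all regions of these classes. One of the 3 was the rising JAK1 region shown above, with TTCTCTGAA from position 77 of the printed window, counted from its 5′ end. The others were the upstream JAK1 promoter region at chr1:65067670-65068498 and the STAT3 coding exon region, both uncalled. The form with 4 bases in the gap, which STAT6 prefers, was in 0 promoter and 2 distal regions (both JAK1), against 4.26% and 7.19%. GAAANNGAA, the core of the element bound by the STAT2 complex with IRF9 and by other interferon regulatory factors, was in 0 promoter and 2 distal regions, against 5.53% and 9.2%, the JAK1 regions at chr1:65044321-65044909 and chr1:65050846-65051435. Of these 2 JAK1 regions, the first was not called and the second was called lower. The windows of the rising region upstream of STAT3, the STAT4 promoter and the TYK2 internal promoter held no match to any of the 12 patterns.

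The other patterns were TGANTCA (AP-1) in 1 promoter and 4 distal regions, against 4.51% and 11.3%, TGTTTAC (forkhead) in 2 and 3, against 3.12% and 9.25%, and TAATTA (homeobox) in 0 and 2, against 2.39% and 9.55%. TGCTGAC (MAF) was in 0 and 2, against 4.33% and 7.67%, CCGGAAG (ETS) in 1 and 1, against 9.61% and 1.89%, and GTTGCCAT (RFX) in 0 and 1, against 1.06% and 1.71%. TGACGTCA (CRE, in 1.41% and 0.319% of all regions of the classes), TTTCCCGC (E2F, 1.76% and 0.43%) and TTTGGCGC (E2F, 0.667% and 0.174%) had no match. Each pattern was counted on its own, and the AP-1 and MAF patterns can overlap at TGA. The ETS match among distal regions was in the rising STAT5B region, in capitals above as CTTCCGG, its reverse complement. Among the other distal matches, an AP-1 one was in the JAK1 region called lower and a MAF one in the STAT4 region called lower. The RFX match was in the JAK2 region called higher. A match is a letter pattern and not a bound site.

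The other genes of the pathway were taken from a list of receptors, inhibitors and adaptors. Of 53 genes 49 had a promoter region, and by the strongest region of each 1 was called higher and 2 lower, where 1.39% and 7.02% of all 15493 genes were. Without the fold limit 4 were higher and 16 lower, against 8.23% and 39.9%. The median log2 fold change over the 49 was -0.11. These counts are near the background shares and are not a result about these genes. CSF3R, IL4R, IL2RG and PTPRC had no promoter region in the table.

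Of the 26 receptor genes, 23 had a promoter region, 1 rose and 1 fell. IL7R, the receptor chain for IL-7, rose with a log2 fold change of 1.53 (SE 0.15 and adjusted p = 1.58e-22) at a mean signal of 180. IL12RB2, a chain of the IL-12 receptor, fell with -1.03 (SE 0.132, adjusted p = 2.3e-13) at a mean signal of 237. STAT4, which acts below the IL-12 receptor, fell as well, whereas IL12RB1, the other chain of that receptor, had 0.43 (SE 0.109, adjusted p = 0.000369), in the opposite direction and under the fold limit. IL12RB1 was named after its value was seen.

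IRF9, the DNA-binding partner of STAT2, had -0.17 (SE 0.082, adjusted p = 0.0894) at a mean signal of 647. Of 20 inhibitor genes with a promoter region 0 rose and 1 fell, namely PIAS1, a SUMO ligase that restrains STAT proteins, with -0.66 (SE 0.072, adjusted p = 3.5e-18) at a mean signal of 1049. That call was lost on removal of the trend on mean signal (-0.54), GC content (-0.50) or both (-0.46), which leave it under the fold limit, and in the test of a change beyond 1.5-fold. The 5 adaptor genes had no called promoter. The median log2 fold changes were -0.10 for receptors, -0.06 for inhibitors and -0.17 for adaptors.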

How the data were processed

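ATAC-seq libraries of senescent and non-senescent EndoC-βH3 cells, 3 of each, were grouped by their labels. According to the study's methods and the submitters' processing notes, the authors used Trim Galore for trimming and Bowtie2 for alignment to hg38, filtered the reads with SAMtools and Picard, called peaks with MACS2, and counted reads under the peaks for DESeq2. The versions are not given in the sources used here. The mean signal in the authors' deposited table is the count divided by size factors, averaged over libraries. The log2 fold change and SE, the score (the Wald statistic) and the p-value and adjusted p-value are also the authors' deposited values. The score equalled fold change over SE, and the adjusted p-value the Benjamini-Hochberg adjustment over all 108542 regions. These columns are the authors' own comparison and were used because individual libraries have no column, which also leaves their depth unreadable and allows no fit or replicate check. Precision is given as the SE, which rests on 3 against 3 libraries. The fold change does not name its numerator, which was taken to be the senescent group.

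Regions were assigned to genes with protein-coding start sites of GENCODE 44, in Python 3.11.15 with pandas 2.3.3, numpy 2.4.6 and scipy 1.17.1. Starts are printed counting from 1. The sequence and position of 1 region are not reported here. Implied group levels were computed from the mean signal and the fold change, for groups of equal size. Intervals are Wald intervals of 95%. Motifs were sought on both strands in 300 bp around the middle of a region. The regions named were, for each member, the promoter region and the distal region of highest mean signal and each called region, and, of the pathway genes, those whose strongest promoter region was called, up to 4 in each direction. The remaining member regions and IL12RB1 were added to these with their values seen. Members and lists were chosen with earlier results of these data known. The steps were tested on simulated data. Alternatives were other thresholds, a test of a change beyond 1.5-fold, a minimum mean signal of 50, removal of trends on mean signal and GC content (running medians over 1000 regions on each side), centring, and other assignments of regions.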

Additional observations from a re-analysis of the deposited data

How the results depend on the processing

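No paired analysis was possible because individual libraries have no column. For the same reason the replicate block, the omission of each library and edgeR were not run. At an adjusted p under 0.01, 1 distal region was lower. Without the fold limit 1 promoter region was higher and 5 lower, 4 distal regions were lower, and 4 pathway genes were higher and 16 lower. By the test of a change beyond 1.5-fold, 0 promoter regions, 0 distal regions and 1 pathway gene were lower and 2 distal regions higher. With a mean signal of at least 50, 1 promoter region and 0 distal regions were lower and 2 distal regions higher, since weak regions left the test. Removing trends took a median log2 of -0.106 (mean signal), -0.136 (GC content) or -0.172 (both) from the members' promoter regions. It left 1 pathway gene lower in each case, 2 pathway genes higher with GC content or both, and 1 distal region lower with GC content. The promoter median became 0.014 with GC content and 0.056 with both. The sign turned at the STAT2 promoter (0.023, 0.05 and 0.098 with mean signal, GC content and both), at the canonical STAT5B promoter (0.134, 0.14 and 0.201) and, with both, at the canonical TYK2 promoter (0.014) and the STAT6 distal region in LRP1 (0.046). With start sites of all gene types the rule gave 14 distal regions, of which only 6 were among the 23 described here. Of the 14, 2 were higher (the STAT3 intron and TYK2) and 0 lower. With canonical transcripts alone 1 promoter region was lower. Of 66 counts 44 stayed within 1.5 times, as 84 of 98 values of named regions kept sign and call. For the trends the cause was not tested. Precision was lower at weak regions.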
